A study of Mus musculus with 6 samples.

Results

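Fragments of small noncoding RNAs other than miRNA, tRNA and rRNA were followed among the Ago-bound short RNAs (R-sRNAs) of mouse brain. They were the sequences that the deposited annotation matched to a small RNA labelled piRNA, sn_snoRNA or miscRNA, with no miRNA name, and that were above 0 in at least 1 of the 6 samples. This gave 631 of the 65087 sequences above 0, under 155 RNA entries. The samples came from 3 WT mice and 3 Tau tg mice, 1 library each, and the study describes males of 3 months in the C57BL/6J background. Tau tg mice express the human tau45-230 fragment from the Thy 1.2 promoter, which is active mainly in neurons. Ago proteins were pulled down with a GW182 peptide, and RNA of 19 to 35 nt was cut from a gel for the libraries. The labels name hippocampus in 1 field, and cortex together with hippocampus in another. The brain miRNA miR-124 was at 48130 to 90800 RPM (reads scaled to library size) while the liver miRNA miR-122 reached at most 28.4 RPM. The tau transgene itself was not checked.

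These RNAs have well-known roles outside the RNA-induced silencing complex (RISC). 7SL RNA is the scaffold of the signal recognition particle, which brings ribosomes to the endoplasmic reticulum, and Y RNAs bind the protein Ro60. Spliceosomal snRNAs remove introns, box C/D and box H/ACA snoRNAs guide methylation and pseudouridylation of other RNAs, and piRNAs bind PIWI proteins and silence transposons in the germline. A fragment of any of them that sits in an Ago protein could pair with mRNAs through its 6mer seed, read positions 2 to 7. In the deposited table each seed carries a viability, the percent of cells that survive a small interfering RNA with that seed, so the lower it is, the more toxic the seed.

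Parent RNAs of 4 entries are printed here with the most abundant matched fragment in capitals, so that its place in the RNA can be seen. The Y RNAs and U1 were among the most abundant sources after rRNA and 7SL RNA, and U2 is shown as the snRNA entry that differed at an unadjusted p of 0.05. The U1 and U2 sequences are the last part of the RNA and the Y RNAs are whole. All are GENCODE M21 transcripts on the GRCm38 build.
Y1 RNA, Rny1: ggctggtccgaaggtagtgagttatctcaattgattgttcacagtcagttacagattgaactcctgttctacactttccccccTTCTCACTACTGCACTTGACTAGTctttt
Y3 RNA, Rny3: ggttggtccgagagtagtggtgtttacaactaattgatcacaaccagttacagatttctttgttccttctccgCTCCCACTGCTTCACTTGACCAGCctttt
U1 snRNA, Rnu1b1, bases 108 to 165: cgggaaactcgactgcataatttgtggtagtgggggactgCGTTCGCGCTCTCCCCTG
U2 snRNA, Rnu2-10, bases 105 to 191: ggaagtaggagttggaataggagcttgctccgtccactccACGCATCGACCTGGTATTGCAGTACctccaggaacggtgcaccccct

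Rn7s1 lies on chromosome 12 at 69159295 to 69159594, and its reads matched Rn7s2 on the same chromosome equally well. Rny1 lies at 47788069 to 47788180 and Rny3 at 47781624 to 47781725 of chromosome 6. Rnu1b1 lies at 96359953 to 96360117 of chromosome 3, and its 3′ end fragment also matched 2 other U1 genes, so the copies cannot be told apart. Rnu2-10 lies at 101658238 to 101658428 of chromosome 11.

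The seeds of 5 fragments are set in capitals here, because the seed is what the study scores. They are the most abundant reads of the Y1, U1 and U2 entries and of a pair of entries that the annotation calls piRNA but that match rRNA.
DQ541851 (18S rRNA): cTGCGGAaggatcatta
U34828 (Y1 RNA): tTCTCACtactgcacttgactagt
M14121 (U1 snRNA): cGTTCGCgctctcccctg
DQ551040 (U2 snRNA): aCGCATCgacctggtattgcagtac
DQ539904 (28S rRNA): cGACACAagggtttgt
Viability of these seeds was 70.5% for the 18S read and 65.0% for the 28S read. It was 50.5% for the Y1 read, 57.4% for the U1 read and 42.9% for the U2 read. Hence the U2 fragment had the most toxic seed of the 5 and the 18S fragment the least toxic. The U2 read was found in Tau tg 2 alone, at 34.3 RPM.

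The libraries held between 998248 and 6879551 reads, recovered from the RPM values as whole reads. The fragments took between 1716 and 8829 of them. Tau tg 1 was the deepest library and held 313 of the 631 sequences, while the other libraries held 118 to 207. A count of 0 in a library allowed up to 0.427 RPM in Tau tg 1 and up to 2.75 RPM in WT 3, the shallowest. Such floors of 3 reads, and all intervals below, cover counting error only. Many sequences were rare, with 446 found in 1 library and 26 in all 6. Of the 155 entries, 97 were found in 1 library and 14 in all 6. The 10 most abundant entries held 74.2% of the fragments' mean RPM. RPM here counts reads of an RNA and is not scaled by its length.

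Together the fragments were a small part of the R-sRNAs. They made up 0.178% of reads in WT 1 (95% Wilson interval 0.173 to 0.184), 0.207% in WT 2 (0.199 to 0.215) and 0.216% in WT 3 (0.207 to 0.225). In Tau tg mice they made up 0.128% in Tau tg 1 (0.126 to 0.131), 0.149% in Tau tg 2 (0.142 to 0.156) and 0.235% in Tau tg 3 (0.229 to 0.242). WT libraries averaged 0.2003% ± 0.0197 (SD, n = 3). Tau tg libraries averaged 0.171% ± 0.0568 (SD, n = 3). Tau tg 3 exceeded all WT libraries while the other two Tau tg libraries lay under them, so the groups overlapped. Among the RNA types of the table, the piRNA, sn_snoRNA and miscRNA shares gave exact two-sided permutation p-values of 0.9, 0.3 and 0.9, where 3 against 3 cannot go below 0.1. Adjusted over the 8 classes of the table they were 1, 0.48 and 1.

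Most of the reads labelled piRNA were traced to other RNAs. The label covered 403 of the 631 sequences and 125 of the 155 entries. Entries that were traced to rRNA held 40.04% of the piRNA-labelled RPM and entries traced to 7SL RNA held 37.6%. For 87 entries with 16.5% of that RPM no source was found. Reads of 26 nt or more, the length of most piRNAs, made up 1.34% of it. An entry was traced to rRNA if reads with at least 50% of its RPM shared 15 nt with a sequence labelled rRNA, or if the 18S gene model was its main match. Otherwise it was traced to the small RNA with the largest part of its exactly matched RPM, with no minimum share. Such matches covered 50.8% of the RPM of DQ540915 and 30.0% of that of DQ696996. Without an exact match, an entry was traced to miRNA hairpins by a like rule. Reads with at least 50% of its RPM had to share 15 nt with a sequence labelled miRNA. In all, 253 of the 631 sequences, with 58.8% of the RPM, matched a mouse transcript exactly on the sense strand. The entries are therefore described below by the RNA they were traced to.

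7SL RNA was the source of the most abundant entry, DQ540915. Its 84 sequences summed to 249, 470 and 618 RPM in WT 1 to 3 and to 251, 303 and 775 RPM in Tau tg 1 to 3. Both groups thus ran over nearly the same range, with 446 RPM ± 186 (SD, n = 3) as the WT mean and 443 RPM ± 288 (SD, n = 3) as the Tau tg mean. In the limma fit on log2(RPM + 1) the difference was -0.10 ± 0.54 (SE), with an adjusted p of 0.946. The fragments covered the last bases of the RNA. Reads that began at base 282 of Rn7s1 held 45.5% of the entry's RPM and those that began at base 281 held 40.6%. Of the reads with an exact match, 85.3% ended at the last base, 300, and 14.4% at base 299.

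A single base at the 5′ end of these reads changed the seed. Reads with the seed UAGCGA, nearly all of which begin at base 281, had a viability of 87.1% and summed to 117, 175 and 316 RPM in WT and 134, 86.1 and 271 RPM in Tau tg mice. Reads with the seed AGCGAG, which begin 1 base later, had a viability of 70.9% and summed to 89.0, 228 and 236 RPM in WT and 46.0, 186 and 430 RPM in Tau tg mice. Neither seed separated the groups. AGCGAG held 11.5% and UAGCGA 10.4% of the fragments' RPM, the largest shares among their seeds. Of all RPM in the table with the seed AGCGAG, 94.0% was in these fragments, and of that with UAGCGA, 93.5%.

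The 3′ ends of the 7SL fragments often carried bases that Rn7s1 does not have. Adenylation of the 7SL 3′ end is known for the intact RNA. Reads that ended at base 299 or 300 with nothing added made up 56.9%, 66.9% and 43.6% of the entry in WT and 37.1%, 55.8% and 46.6% in Tau tg mice. Those with added A and no other base made up 28.6%, 16.9% and 31.6% in WT and 39.0%, 10.2% and 35.8% in Tau tg mice. Added T alone accounted for 5.08%, 11.7% and 6.82% in WT and 9.74%, 17.1% and 8.34% in Tau tg mice. All 3 ranges overlapped between the groups, and added A was more frequent than added T in every library but Tau tg 2. The genome was not used here, so an added base cannot be told apart from a base encoded by another copy of the gene.

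A pair of the 7SL end sequences passed an unadjusted p of 0.05. The read with 1 added T that begins at base 282 was at 2.34, 2.71 and 5.50 RPM in WT and 6.55, 48.5 and 35.2 RPM in Tau tg mice. Every Tau tg library was above every WT library, with a log2 difference of 2.46 ± 0.99 (SE) and a limma p of 0.0125 before and 0.584 after adjustment. The unadjusted p was 0.104 without Tau tg 2, 0.0838 without Tau tg 3 and 0.0727 with edgeR. The read that begins at base 281 and has A after base 299 was at 0 in all WT libraries and at 16.6, 0 and 20.5 RPM in Tau tg mice, with an adjusted p of 0.584. It was seen in 2 of 3 Tau tg libraries, so its groups met at 0, and it passed the filter only through its Tau tg values. Its unadjusted p rose to 0.209 if Tau tg 1 and to 0.230 if Tau tg 3 was dropped.

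rRNA was the source of 19 entries that are labelled piRNA, with 100 sequences. The largest, DQ541851, held the 3′ end of 18S rRNA, the RNA of the small ribosomal subunit. All of its exactly matched RPM ended at base 1244 of Gm42418, a gene model at 39846958 to 39848788 of chromosome 17 that RefSeq lists as an 18S rRNA related sequence. The entry was at 84.8, 438 and 411 RPM in WT and 114.7, 97.8 and 373 RPM in Tau tg mice. WT 1, Tau tg 1 and Tau tg 2 were low and the other libraries high, so the groups overlapped, and the adjusted p in the limma fit was 0.587. Without WT 1 the log2 difference was -1.39 with an unadjusted p of 0.0260. This was 1 of 16 alternative fits (limma, edgeR or DESeq2) with the entry under 0.05. The lowest adjusted p among them was 0.536. A single 17-nt read, printed above, held 62.7% of the entry's RPM. Reads under 19 nt, shorter than the range cut from the gel, held 97.3%.

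DQ539904 is named here as the end of 28S rRNA, the RNA of the large ribosomal subunit. All of its RPM was in reads that share 15 nt with an rRNA-labelled sequence. No 28S sequence was matched, so this name and position were not tested. Its 17 sequences summed to 75.9, 44.0 and 93.6 RPM in WT and 126.5, 166 and 185 RPM in Tau tg mice. All Tau tg libraries were above all WT libraries, with a log2 difference of 1.20 ± 0.77 (SE) and a limma p of 0.118, adjusted 0.587. The length classes differed in this entry. Reads under 19 nt were at 75.9, 40.7 and 88.1 RPM in WT and 115.7, 89.5 and 82.2 RPM in Tau tg mice, and these ranges overlapped. The WT mean of these short reads was 68.2 RPM and the Tau tg mean 95.8 RPM. Reads of 19 to 25 nt were at 0, 2.71 and 2.75 RPM in WT and 9.82, 75.3 and 73.6 RPM in Tau tg mice. In the fit restricted to reads of 19 to 25 nt the log2 difference of the entry was 4.04 ± 1.21 (SE). The limma p was 0.000863 before and 0.475 after adjustment. This split by length was chosen after the values were seen, so its p is a description only. Over all fragments the share of 19 to 25 nt was also higher, at 66.7% on average in Tau tg and 55.3% in WT libraries.

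A pair of the longer 28S end reads had other seeds. They are shown with their seeds in capitals, since the same 3′ end begins at a different base in each.
the short read: cGACACAagggtttgt
the 23-nt read: cAGCCCTcgacacaagggtttgt
the 25-nt read: gTCAGCCctcgacacaagggtttgt
The seeds of the longer reads had a viability of 23.7% and 28.5%, against 65.0% for the short read. The 25-nt read was at 0 in all WT libraries and at 6.55, 1.67 and 36.8 RPM in Tau tg mice, with an unadjusted p of 0.0113 and an adjusted p of 0.584 in the limma fit. The 23-nt read was at 0, 2.71 and 0 RPM in WT and 0, 45.2 and 10.6 RPM in Tau tg mice, with an unadjusted p of 0.0495 and an adjusted p of 0.584 in the limma fit. As deposited, the groups did not overlap for the 25-nt read and did for the 23-nt read. For the 25-nt read, Tau tg 2 at 1.67 RPM was under the 3-read floors of WT 2 (2.03 RPM) and WT 3 (2.75 RPM). Counts this low cannot show that its groups are separate. Both longer reads passed the filter only through their Tau tg values. Without Tau tg 3 the unadjusted p of the 25-nt read was 0.213. That of the 23-nt read was over 0.05 without WT 1, WT 3, Tau tg 2 or Tau tg 3, at 0.111 to 0.474. It was under 0.05 in 3 of 14 alternative fits (limma, edgeR or DESeq2).

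Another rRNA entry, DQ546549, was the one entry lower in Tau tg mice at an unadjusted p of 0.05. All of its RPM was in reads that share 15 nt with an rRNA-labelled sequence. No exact match placed them, so which rRNA they come from was not tested. The entry was at 39.8, 37.9 and 50.5 RPM in WT and 6.83, 0.836 and 36.0 RPM in Tau tg mice. All WT libraries were above all Tau tg libraries, although Tau tg 3 was close to them. The log2 difference was -2.42 ± 1.14 (SE), with a limma p of 0.0339 before and 0.587 after adjustment. The unadjusted p became 0.0707 if WT 3, 0.0592 if Tau tg 1 and 0.251 if Tau tg 2 was dropped, and 0.375 with edgeR. It was under 0.05 in 8 of 16 alternative fits (limma, edgeR or DESeq2).

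The Y RNAs were represented by Y1 and Y3, both encoded on chromosome 6. U34828 (Y1) was at 322, 47.4 and 105 RPM in WT and 201, 232 and 174 RPM in Tau tg mice. WT libraries spread 6.78-fold and Tau tg libraries 1.34-fold, and the Tau tg values lay within the WT range. U34827 (Y3) was at 130, 29.1 and 34.9 RPM in WT and 84.4, 97.0 and 28.2 RPM in Tau tg mice. WT 1 was the highest library for both RNAs. Without WT 1 the log2 difference of Y1 was 1.49 with an unadjusted p of 0.0389. This was 1 of 16 alternative fits (limma, edgeR or DESeq2) with Y1 under 0.05. The lowest adjusted p among them was 0.536. With all libraries neither RNA passed the threshold, with adjusted p-values of 0.587 and 0.899 in the limma fit.

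Most Y1 fragments began at either of 2 neighbouring bases near the 3′ end. Reads that began at base 84 of Y1 held 60.4% of its matched RPM and those that began at base 83 held 29.3%. They ended mostly at base 107 (45.1%) and base 104 (27.1%) of 112, ahead of the terminal T run. The start at base 84 gives the seed UCUCAC, with a viability of 50.5%, and the start at base 83 the seed UUCUCA, with a viability of 70.3%. In Y3 the starts were spread over bases 74, 75 and 79, and base 74 held 26.1% of the matched RPM. Weighted by RPM, the median length of the Y1 fragments was 22 to 24 nt in the 6 libraries.

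Among spliceosomal snRNAs, U1, which pairs with the 5′ splice site, gave the most fragments. M14121 was at 322, 81.3 and 151 RPM in WT and 78.5, 42.7 and 134 RPM in Tau tg mice. WT 1 was again the highest, the groups overlapped, and the log2 difference of -1.04 ± 0.75 (SE) had an adjusted p of 0.587 in the limma fit. Without WT 2 it was -1.52 with an unadjusted p of 0.0490. This was 1 of 16 alternative fits (limma, edgeR or DESeq2) with M14121 under 0.05. Its lowest adjusted p among them was 0.422. Reads that ended at base 165, the last of Rnu1b1, held 64.3% of its matched RPM. The most abundant of them, printed above for U1, was at 54.8, 41.3 and 38.5 RPM in WT and 8.68, 0.836 and 29.1 RPM in Tau tg mice. All WT libraries were above all Tau tg libraries, with a log2 difference of -2.48 ± 0.87 (SE) and a limma p of 0.00451 before and 0.584 after adjustment. Without Tau tg 2 the difference was -1.41 with an unadjusted p of 0.111, and edgeR gave 0.163. Reads that began 1 base later did not show this order, being at 56.2, 4.07 and 5.50 RPM in WT and 9.25, 33.5 and 22.5 RPM in Tau tg mice. The second U1 entry, M32272, held reads from inside the RNA that ended between bases 21 and 149, at 44.0, 39.3 and 10.1 RPM in WT and 41.1, 39.3 and 39.7 RPM in Tau tg mice. With reads of 19 to 25 nt only, it was at 28.1, 0 and 0 RPM in WT and 18.9, 27.6 and 10.2 RPM in Tau tg mice. The log2 difference was then 2.59, with an unadjusted p of 0.0442 in the limma fit. WT 1 was above every Tau tg library in these reads, so the groups overlapped. This was 1 of 16 alternative fits (limma, edgeR or DESeq2) with M32272 under 0.05. The lowest adjusted p among them was 0.574. This length split was chosen after the values were seen.

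U2 snRNA, which pairs with the branch point of introns, was found under DQ551040, another entry labelled piRNA. It was at 16.9, 0.678 and 0 RPM in WT and 18.8, 55.2 and 24.5 RPM in Tau tg mice. All Tau tg libraries were above all WT libraries, but Tau tg 1 was only just above WT 1. The log2 difference was 3.30 ± 1.31 (SE), with a limma p of 0.0121 before and 0.587 after adjustment. The unadjusted p was 0.0513 without WT 3, 0.0852 without Tau tg 2 and 0.173 with edgeR. Unlike the U1 reads, they did not reach the 3′ end. Reads that began at base 145 of Rnu2-10 held 71.3% of the RPM, and none ended beyond base 169 of 191. The most abundant U2 read has a seed viability of 42.9%. Of the entries traced to spliceosomal snRNAs, 4 were tested. U2 was higher at an unadjusted p of 0.05 and none was lower, beside 2.22% of all RNAs past that p in either direction.

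snoRNAs and related guide RNAs gave fewer reads. The imprinted Snord115 RNAs, made in neurons from the paternal chromosome, were found under AF357427, whose reads matched 120 snoRNA genes between 59344073 and 59617690 of chromosome 7. They were at 0 in all WT libraries and at 2.85, 17.6 and 18.8 RPM in Tau tg mice. The Tau tg mean of 13.1 RPM was 6.34-fold the mean 3-read floor of the WT libraries, 2.06 RPM. Tau tg 1, at 2.85 RPM, was close to the floor of WT 3, 2.75 RPM. The limma p was 0.0320 before and 0.587 after adjustment, for an entry that passed the filter only through its Tau tg values. Each of its 3 sequences was found in 1 library only, so no single Snord115 sequence was shared between Tau tg mice. Without Tau tg 3 the unadjusted p was 0.164, and without Tau tg 2 it was 0.118. The neighbouring Snord116, AF357429, was at 0 in WT and at 3.27, 20.1 and 0 RPM in Tau tg mice, with an adjusted p of 0.587 in the limma fit.

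AF357404 matched the scaRNA gene Scarna3a, at 159340283 to 159340422 of chromosome 1 inside the gene Cop1. scaRNAs guide the modification of snRNAs in Cajal bodies. The miRNA hairpin Mir1843b, at 159340358 to 159340423, overlaps it on the same strand. Both matched reads of the entry lie inside the hairpin, so the scaRNA and the hairpin cannot be told apart as their source. The entry was at 0 in all WT libraries and at 5.69, 14.2 and 8.59 RPM in Tau tg mice. Its Tau tg mean of 9.5 RPM was 4.60-fold the same mean floor, and the entry passed the filter only through its Tau tg values. The limma p was 0.0443 before and 0.587 after adjustment, and leaving out any 1 library took the unadjusted p over 0.05, to between 0.0554 and 0.132. U3, a box C/D snoRNA needed to process the rRNA precursor, was at 12.6, 13.6 and 22.9 RPM in WT and 0.996, 0 and 9.002 RPM in Tau tg mice. The groups did not overlap, but the limma p was 0.0633 before adjustment.

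Box H/ACA snoRNAs were the larger snoRNA class, with 10 entries and 0.213 to 18.7 RPM on average. The most abundant was Snora41, in the gene Eef1b2, at 6.09, 25.7 and 22.9 RPM in WT and 17.8, 20.9 and 18.8 RPM in Tau tg mice. Its reads began mostly at base 108 of 132, which held 91.4% of the matched RPM. AF357412, which matched Snora36b, followed with 5.15, 27.8 and 12.8 RPM in WT and 13.4, 6.69 and 9.82 RPM in Tau tg mice. Its 4 matched reads also lie inside the overlapping miRNA hairpin Mir664, at 185242975 to 185243043 of chromosome 1, so these sources cannot be told apart either. Of the 10 entries 5 were tested and none passed an unadjusted p of 0.05 in limma.

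BC1, a dendritic RNA of rodent neurons that represses translation, was at 19.2, 12.9 and 0 RPM in WT and 4.70, 0 and 0 RPM in Tau tg mice, with an unadjusted p of 0.248 in the limma fit. 7SK RNA, which holds the elongation factor P-TEFb inactive, was seen in Tau tg 1 and Tau tg 3 at up to 3.68 RPM, and U7 snRNA, which processes histone mRNAs, in WT 2 alone at 14.2 RPM. No entry was traced to vault RNA, to RNase P or MRP RNA or to 4.5S RNA by these matches. The entry DQ696996, labelled piRNA, shares sequence with the miR-744 hairpin and was at 48.7, 5.42 and 6.42 RPM in WT and 33.2, 31.8 and 30.7 RPM in Tau tg mice. The remaining entry among the 10 most abundant, M18004, had no source by these rules. It was at 5.62, 28.5 and 30.3 RPM in WT and 22.6, 11.7 and 48.3 RPM in Tau tg mice. No U4 snRNA sequence was available for matching, so U4 as its source was not tested.

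By RPM, the 3′ end was the common place of origin. Over all reads with an exact match to a small RNA other than the 18S model and miRNA hairpins, 67.1% of the RPM ended within 5 nt of the annotated 3′ end and 0.190% began within 5 nt of the 5′ end. The share at the 3′ end was 63.0%, 75.0% and 80.0% in WT and 51.3%, 60.2% and 72.9% in Tau tg mice, which overlapped. It was 94.2% for 7SL RNA, 81.6% for box H/ACA snoRNAs, 70.7% for Y3, 57.7% for Y1 and 50.7% for U1. No U2 or BC1 read ended within 5 nt of the annotated 3′ end. The BC1 reads ended at bases 151 to 155 of a 168-nt gene model. Whether that model ends where the RNA itself ends was not tested. By number rather than by RPM, 73 of the 217 matched sequences ended within 5 nt of the 3′ end. 7SL RNA, which had the highest share of the RNAs just named, held 239 of the 730 matched RPM.

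The fragments were more spread in length than all R-sRNAs together, most of which are miRNA. Reads of 19 to 25 nt made up 60.8%, 50.2% and 54.8% of their RPM in WT and 65.2%, 69.99% and 64.8% in Tau tg mice, against 92.2% to 97.4% of all RPM in the same libraries. Other non-miRNA classes had like shares, 60.1% to 72.7% for rRNA, 43.2% to 56.8% for tRNA and 54.6% to 66.4% for mRNA fragments. Every Tau tg library was above every WT library in this share, and the same held for mRNA fragments. The fragments traced to rRNA were mostly under 19 nt, with 72.4% to 84.99% of RPM, while those from 7SL RNA were mostly of 19 to 25 nt, with 85.5% to 97.1%. T was the first base of 30.8% to 42.4% of the fragments' RPM, of 65.1% to 69.0% of all RPM, and of 24.2% to 39.8% of rRNA-labelled RPM.

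The weighted median 6mer seed viability of the fragments was 65.2, 70.5 and 70.5% in WT and 69.3, 69.7 and 70.5% in Tau tg mice. It was 56.3 to 57.3% over all R-sRNAs of the same libraries, which is lower in each library. tRNA fragments had 67.0 to 76.8%, a range that overlaps that of these fragments. The WT mean was 68.7% ± 3.06 (SD, n = 3) and the Tau tg mean 69.8% ± 0.61 (SD, n = 3). These differ by less than the WT libraries do among themselves. Seeds under 50% viability held 15.9% to 20.8% of the fragments' RPM, against 23.7% to 25.5% of all RPM. By source, the weighted median was 70.9 to 87.1% for 7SL RNA, 50.5 to 64.9% for Y1 and 57.0 to 80.6% for U1.

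Across the fragments as a whole few sequences differed between WT and Tau tg mice. With a mean of at least 1 RPM, 311 of the 631 sequences entered the fit, and 5 passed an unadjusted p of 0.05, 4 higher and 1 lower in Tau tg mice. This was 1.61% of those tested, beside 2.23% of all sequences. The higher ones, except the 7SL read with 1 added T, passed the filter only through their Tau tg values. No sequence of the fragments passed after adjustment in limma, where 0.0277% of all sequences did. edgeR on the recovered reads called 19 at an unadjusted p of 0.05 and none after adjustment, and DESeq2 called 29 and 3. Each of the 3 was found in WT 2 alone, at 38.6 to 43.4 RPM. Summed by RNA, 104 of the 155 entries were tested and 4 passed an unadjusted p of 0.05, namely U2, Snord115 and AF357404 higher and DQ546549 lower. This was 3.85%, beside 2.22% of all RNAs. Snord115 and AF357404 were at 0 in all WT libraries and passed the filter only through their Tau tg values. None of the 104 entries passed after adjustment in limma, beside 0.0301% of all RNAs. edgeR called 4 entries and DESeq2 9 at an unadjusted p of 0.05, and neither tool called any after adjustment. Of the 14 entries above 0 in all 6 libraries, 3 had groups that did not overlap, DQ539904, DQ546549 and DQ702902, which is traced to a miRNA hairpin, beside 11.5% of all RNAs above 0 in all 6 libraries. In the fit by RNA, 46.2% of the tested entries and 43.2% of all RNAs were higher in Tau tg mice.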

How the data were processed

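Small RNA libraries of Ago-bound RNA from 3 WT and 3 Tau tg mice were analysed, with groups taken from the sample titles. The deposited values are RPM, scaled by the authors with their SPOROS pipeline after trimming (Trim Galore, per the labels), removal of rare reads and BLAST annotation. The deposited viability score per 6mer seed, a percent, was used as given by the authors. All values were whole multiples of 1 read (100% whole), so reads were recovered for count models. Rare-read removal makes low values incomplete. Coordinates of the deposited annotation, which names the mm9 build, and its total column were not used. Reads were matched exactly to GENCODE M21 transcripts. Entries are the RNA names of the deposited annotation.

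Sequences, and RPM summed by RNA, were fitted in limma 3.58.1 on log2(RPM + 1) with its trend option. A mean RPM of 1 or more was required, and p-values were adjusted over all rows tested by Benjamini-Hochberg. This scale understates changes of low RNAs. edgeR 4.0.16 and DESeq2 1.42.0 ran on recovered reads (R 4.3.3). The fits were tested on simulated data. Other pseudocounts, filters, scaling, lengths and left-out libraries were tried. P-values of the fits set a group difference against the spread between these samples, as moderated across rows. Named RNAs were the 10 with the highest mean RPM, up to 5 in each direction with the lowest unadjusted p under 0.05 (likewise for sequences that averaged 5 RPM or more), and members of the lists of small RNA classes. The read with 1 base later in U1, the length split of DQ539904 and M32272, and DQ702902 were chosen after their values were seen. Members and lists were chosen with earlier results of these data known. Shares of RNA types were compared with the exact permutation test over 20 assignments. The sequence of 7SL RNA is not reported here.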

Additional observations from a re-analysis of the deposited data

How the results depend on the processing

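The number of fragment sequences at an unadjusted p of 0.05 was 5, and became 8 with a pseudocount of 0.1 RPM, 1 with a mean of at least 10 RPM (23 tested), 19 with edgeR and 29 with DESeq2. It ranged from 2 to 10 when 1 library was left out, being 8 when WT 1, 10 when WT 2 and 2 when Tau tg 2 or Tau tg 3 was dropped. After adjustment DESeq2 called 3 and every other setting 0, leave-one-out fits included (0 to 0). The number of RNA entries was 4, and became 2 with a pseudocount of 5 RPM and 9 with DESeq2. It ranged from 2 to 6 with 1 library left out, being 2 when Tau tg 1 or Tau tg 2 was dropped, and after adjustment it was 0 throughout (0 to 0).

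The share of RPM ending near the 3′ end became 46.9% within 2 nt and 78.1% within 10 nt, windows chosen after seeing the data, and 64.9% to 69.4% with 1 library left out. The difference in the fragments' share ranged from -0.0617 to -0.00815 percentage points, and that in weighted median viability from -0.667 to 1.98, with 1 library left out. Both moved by less than 1 SD, taken over both groups, under the other settings, but the share difference changed sign with reads of 19 to 25 nt, from -0.0294 to 0.0013.

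The sign of the log2 difference changed in 5 entries, none past the threshold with all libraries and lengths. For DQ540915 it became 0.23 with edgeR, 0.012 with reads of 19 to 25 nt, and ranged from -0.59 to 0.22 with 1 library left out. For DQ541851 it became 0.42 with reads of 19 to 25 nt. With 1 library left out it ranged from -0.13 to 0.93 for U34827, from -0.054 to 0.96 for M32272 and from -0.31 to 0.90 for M18004. Of these, DQ541851 passed an unadjusted p of 0.05 without WT 1 and M32272 with reads of 19 to 25 nt. The cause was not tested.

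With a replicate block, 4 sequences and 5 entries passed an unadjusted p of 0.05, and none after adjustment. Deviations of same-numbered samples correlated at 0.0257, 0.00713 and 0.00684. Only WT 1 and WT 3 correlated best with the Tau tg library of the same number. With 3 libraries a group, this check cannot tell whether same-numbered libraries were handled together. Depth limits what is seen below 0.427 to 2.75 RPM, and 3 libraries a group limit every test.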
